A study of Rattus norvegicus with 6 samples.

Results

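The genes described are 52 listed genes of DNA replication and mitosis, chosen by name for what they do in the cell cycle. The choice was made with earlier results of these data known, so their shares were not tested against those of all genes. Of the 52, 48 had a single-gene row among the 18166 genes tested. Rrm1, Cenpe, Birc5 and Anln had no such row and carry no value here. The 48 genes fell into 4 groups by role: replication and the G1/S step (18 of 19 listed), the cyclins and kinases of G2 and mitosis (10 of 10), the kinetochore and the spindle checkpoint (7 of 9), and motors, spindle proteins and chromosome proteins (13 of 14).

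Values came from kidneys of 2 groups of diabetic Sprague-Dawley rats, on 3 HQYDP and 3 DM arrays (Affymetrix Rat Gene 2.0 ST). Each array was taken as a single rat, which the sample titles do not state outright. Every rat carried diabetes made with streptozotocin, a β-cell toxin, at 60 mg/kg, and the labels give the age as 17 weeks in both groups. HQYDP rats were then dosed with Qishen Yiqi dripping pill (QYDP), a preparation of Chinese herbs, at 300 mg/kg/day over 8 weeks, and DM rats had saline instead. Per the study's methods the RNA came from the cortex, a mixed tissue, so that fewer dividing cells and less RNA per dividing cell cannot be told apart. No array of a rat without diabetes was analysed here. The labels call the 3 DM arrays, and no HQYDP array, a re-analysis, so that a batch and the treatment cannot be told apart. Values are log2 signals, and a difference is HQYDP minus DM, so that a negative one means lower in HQYDP.

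A cell copies its DNA once in S phase and shares the copies out in mitosis. The MCM helicase is loaded on origins in G1 and opens the DNA in S phase, and cyclins with their kinases drive each step. In mitosis the kinetochore ties each chromosome to the spindle, a checkpoint holds the cell until all are tied, and motor proteins move the chromosomes and close off the daughter cells. Most of the mitotic genes are transcribed mainly in cycling cells and are used as markers of proliferation. The tubular epithelium of the adult kidney divides rarely and re-enters the cycle after injury.

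Genes of this kind are known for shared letters in their promoters, so the 4 genes that stayed lower in HQYDP whichever array was left out (Ttk, Nuf2, Kif4a and Dlgap5) and the 2 higher genes (Melk and Kifc1) are shown by theirs. Each is the RefSeq sequence of GRCr8 from 250 bases before to 50 bases after the start, written 5′ to 3′ on the gene's strand. Capitals mark the cell cycle homology region (CHR, TTTGAA or TTTAAA) and the CCAAT box, on either strand. Ttk, a kinase of the spindle checkpoint, lies at chr8:93634389-93634688 on the plus strand, and Nuf2, a subunit of the NDC80 kinetochore complex, at chr13:84255549-84255848 on the minus strand. Kif4a, a chromosome-bound kinesin, lies at chrX:69761633-69761932 on the plus strand, and Dlgap5, a spindle microtubule protein, at chr15:23144127-23144426 on the minus strand. Melk, a kinase of proliferating cells, lies at chr5:63335901-63336200 on the plus strand, and Kifc1, a kinesin that moves toward microtubule minus ends, at chr20:5000679-5000978 on the plus strand.
Ttk: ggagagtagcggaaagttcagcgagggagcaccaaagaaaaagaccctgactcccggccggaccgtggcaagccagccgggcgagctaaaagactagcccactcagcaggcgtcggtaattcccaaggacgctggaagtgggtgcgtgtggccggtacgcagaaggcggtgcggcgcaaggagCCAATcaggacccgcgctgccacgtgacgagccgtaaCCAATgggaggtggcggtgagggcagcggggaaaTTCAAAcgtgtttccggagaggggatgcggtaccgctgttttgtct
Nuf2: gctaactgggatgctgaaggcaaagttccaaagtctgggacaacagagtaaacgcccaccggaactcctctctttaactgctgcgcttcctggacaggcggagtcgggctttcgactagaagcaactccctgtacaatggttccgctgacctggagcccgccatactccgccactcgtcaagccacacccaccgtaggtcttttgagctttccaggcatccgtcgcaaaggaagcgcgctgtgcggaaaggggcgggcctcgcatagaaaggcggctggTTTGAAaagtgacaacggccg
Kif4a: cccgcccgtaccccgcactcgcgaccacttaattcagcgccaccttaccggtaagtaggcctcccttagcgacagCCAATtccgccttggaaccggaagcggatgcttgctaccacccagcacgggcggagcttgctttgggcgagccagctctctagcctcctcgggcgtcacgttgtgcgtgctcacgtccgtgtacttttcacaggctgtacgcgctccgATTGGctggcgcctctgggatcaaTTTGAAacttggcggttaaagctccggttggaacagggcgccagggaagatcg
Dlgap5: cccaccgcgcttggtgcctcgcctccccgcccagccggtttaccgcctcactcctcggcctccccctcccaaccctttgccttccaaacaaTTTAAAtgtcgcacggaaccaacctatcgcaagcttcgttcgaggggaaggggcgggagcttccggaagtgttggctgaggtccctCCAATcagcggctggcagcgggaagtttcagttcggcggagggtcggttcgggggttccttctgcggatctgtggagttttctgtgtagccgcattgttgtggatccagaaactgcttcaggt
Melk: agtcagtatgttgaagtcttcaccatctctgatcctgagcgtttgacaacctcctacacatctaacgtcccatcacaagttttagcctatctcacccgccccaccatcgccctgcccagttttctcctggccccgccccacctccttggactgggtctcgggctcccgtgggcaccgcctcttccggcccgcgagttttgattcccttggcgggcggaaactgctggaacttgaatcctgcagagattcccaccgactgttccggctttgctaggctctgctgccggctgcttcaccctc
Kifc1: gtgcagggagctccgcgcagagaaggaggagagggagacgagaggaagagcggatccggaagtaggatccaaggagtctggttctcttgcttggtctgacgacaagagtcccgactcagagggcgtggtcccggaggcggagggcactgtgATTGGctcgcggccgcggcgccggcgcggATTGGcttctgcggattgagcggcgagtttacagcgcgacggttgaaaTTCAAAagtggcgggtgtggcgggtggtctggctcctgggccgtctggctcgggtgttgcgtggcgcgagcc
The CHR of Kif4a began 3 bases before the start and that of Kifc1 22 bases before it, while those of Ttk and Nuf2 began at bases 5 and 30 after it. In Dlgap5 the CHR lay 159 bases before the start. Ttk, Kif4a and Kifc1 held 2 CCAAT boxes each, Dlgap5 held 1 and Nuf2 none. The Melk window held none of the letters searched.

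The same search was run on 37 promoters of 36 of the 48 genes, since Kif2c has 2 starts and 12 genes had no promoter in the table. A CHR stood in 26 of the 37 (70.3%), against 24.8% of 15973 promoters of genes tested and 28.3% of all 33469 promoters. A CCAAT box stood in 25 of the 37 (67.6%), against 37.5% of the promoters of genes tested. E2F letters, searched as TTCCCGCC, TTTCCCGC, TTTGGCGC or TTTCGCGC on both strands, with words that overlap each other, stood in 10 of the 37 (27.0%), against 4.73%. The groups differed in which letters they held. E2F letters stood in 8 of 11 promoters of replication and G1/S genes, among them Mcm2, Mcm3, Mcm5, Mcm6 and Mcm7, and in 1 of 6, 0 of 7 and 1 of 13 in the G2/M, kinetochore and motor groups. A CHR stood in 2 of 11 promoters of replication and G1/S genes, and in 5 of 6, 7 of 7 and 12 of 13 in the other groups. Within 50 bases of the start, a window chosen after the positions were seen, a CHR stood in 20 of the 37 promoters (54.1%), against 6.84% for genes tested. These are matches of letters and describe the promoters alone.

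**Figure D1:**
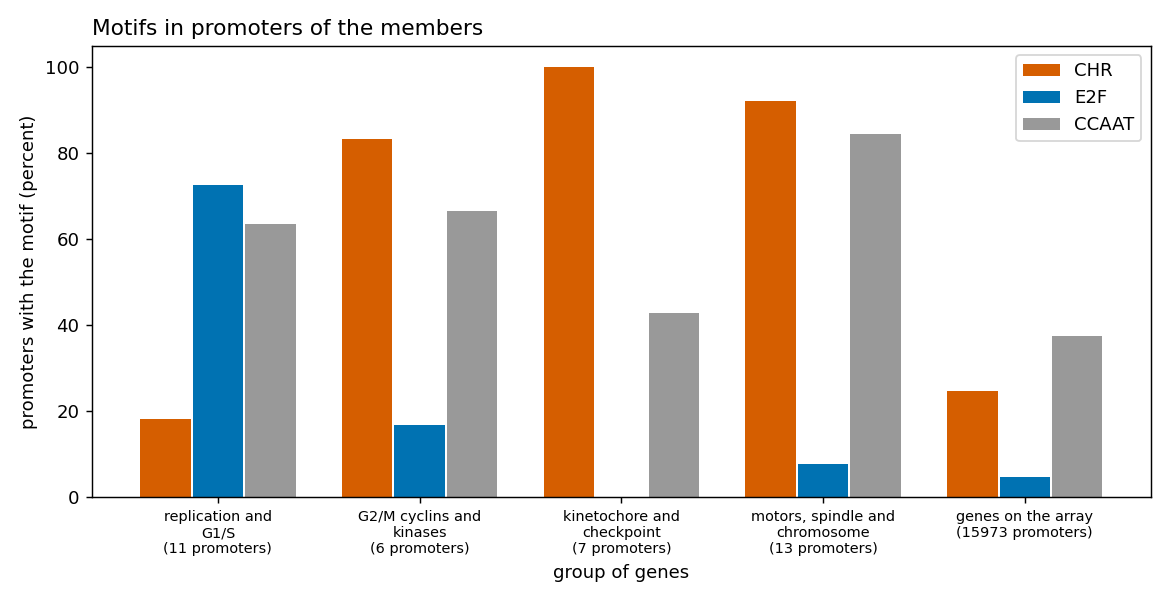
Share of promoters, in percent, that hold a CHR, E2F letters or a CCAAT box, for the 4 groups and for all promoters of genes tested, over 300 bases per promoter. E2F letters stood mostly in promoters of replication and G1/S genes (8 of 11). The CHR stood in promoters of kinetochore genes (7 of 7) and of motor, spindle and chromosome genes (12 of 13 promoters, from 12 genes).

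Over the 48 genes, 45 had a lower mean in HQYDP than in DM and 3 a higher one, with a median difference of -0.40 and a range of -1.12 to 1.01, beside a median of -0.0017 over all 18166 genes tested. At the study's thresholds, an unadjusted p under 0.05 in limma and a fold over 1.5, 9 of the 48 genes fell (18.8%), where 1.82% of all genes tested did. These were Ttk, Nuf2, Cenpf, Kif4a, Dlgap5, Ect2, Ccna2, Ccnb1 and Rrm2. At the same thresholds 2 rose, Melk and Kifc1, where 1.46% of all genes tested did. After Benjamini-Hochberg adjustment in limma 0 of the 48 passed, with a lowest adjusted p of 0.203 for Nuf2, where 0.0165% of all genes tested, 3 genes, passed. An unadjusted p under 0.05 was found for 16 of the 48, where 7.38% of all genes tested had one. The methods' t-test also left 0 after adjustment. At the study's thresholds it kept 3 of the 9 falls (Ttk, Nuf2 and Dlgap5), where 0.655% of all genes tested fell. It kept both rises, where 0.875% of all genes tested rose. The study reported more genes higher than lower in HQYDP, and the methods' t-test here had the same balance. Limma had the opposite one, with 330 genes lower and 266 higher of all genes tested. The limma counts thus apply the study's cutoffs to another test and are not the study's own gene list. Every HQYDP array lay below every DM array for 11 of the 48 (22.9%), where 6.01% of all genes tested did so, and above for 2, where 6.08% did. In limma, a p-value sets the difference between groups against the spread within groups, moderated over all genes, here with 3 arrays per group.

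**Figure D2:**
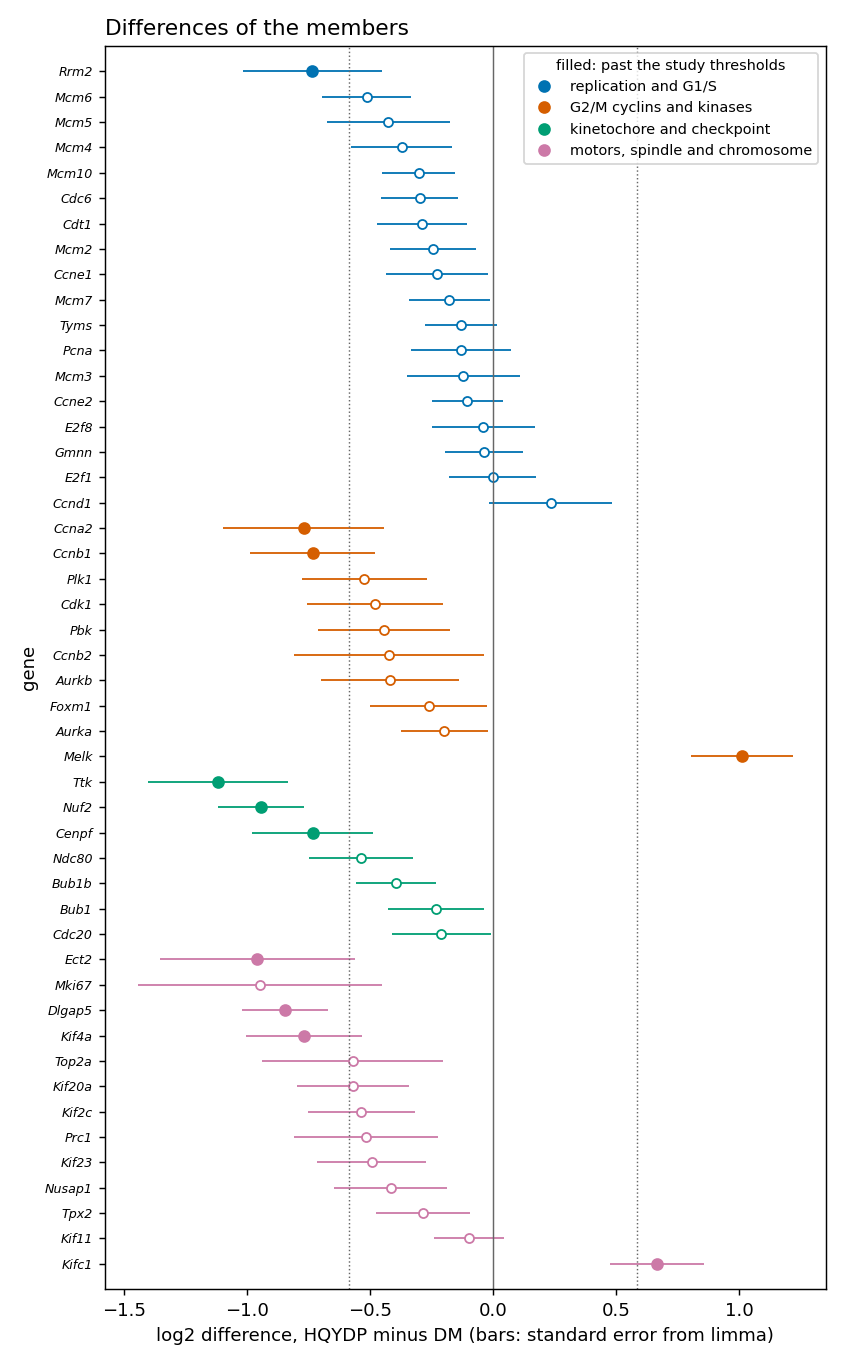
Difference in log2 value, HQYDP minus DM, with its standard error, for each of the 48 genes in the 4 groups. Of the 48, 45 lie below 0, and Melk at 1.01 and Kifc1 at 0.67 stand out above it.

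The 3 DM rats did not carry these genes alike. The median deviation of the 48 genes from their own means over 6 arrays was -0.22, -0.22 and -0.13 on HQYDP arrays 1, 2 and 3, against 0.46, 0.25 and -0.14 on DM arrays 1, 2 and 3. DM replicate 3 thus lay at the level of the HQYDP arrays, and DM replicates 1 and 2 above all of them. DM replicate 1 held the highest value of 33 of the 48 genes (68.8%), against 19.3% of all genes tested. HQYDP replicate 2 held the lowest value of 22 (45.8%), against 15.8% of all genes. DM replicates 1 and 2 were both above every HQYDP array for 31 of the 48 genes (64.6%), against 14.3% of all genes. DM replicate 3 was below both other DM arrays for 34 of them (70.8%), against 35.7% of all genes, and stood inside the range of the HQYDP arrays for 22 (45.8%), near the 44.2% of all genes.

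Without DM replicate 3, 23 of the 48 genes were lower at the study's thresholds (4.02% of all genes tested) and 2 were higher (2.09%), and 7 passed limma's adjusted threshold, where 0.831% of all genes did. The 7 were Mki67, Ttk, Ccna2, Ect2, Kif4a and Top2a, all lower, and Melk, higher. With any other single array left out, 0 of the 48 passed the adjusted threshold, where at most 0.0055% of all genes did. Without DM replicate 1, where most of the genes peaked, 4 were lower (Ttk, Nuf2, Kif4a and Dlgap5, 1.87% of all genes tested) and 2 higher (1.80%). Without DM replicate 2, 7 were lower (1.21%). Without HQYDP replicate 1, 2 or 3 the lower counts were 6 (2.02%), 9 (1.45%) and 10 (1.76%). Ttk, Nuf2, Kif4a and Dlgap5 were lower and Melk was higher at the study's thresholds with any 1 of the 6 arrays left out. Of these, Ttk, Nuf2 and Kif4a were dim, with mean values at percentiles 20.4, 20.9 and 20.1 of all genes tested.

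**Figure D3:**
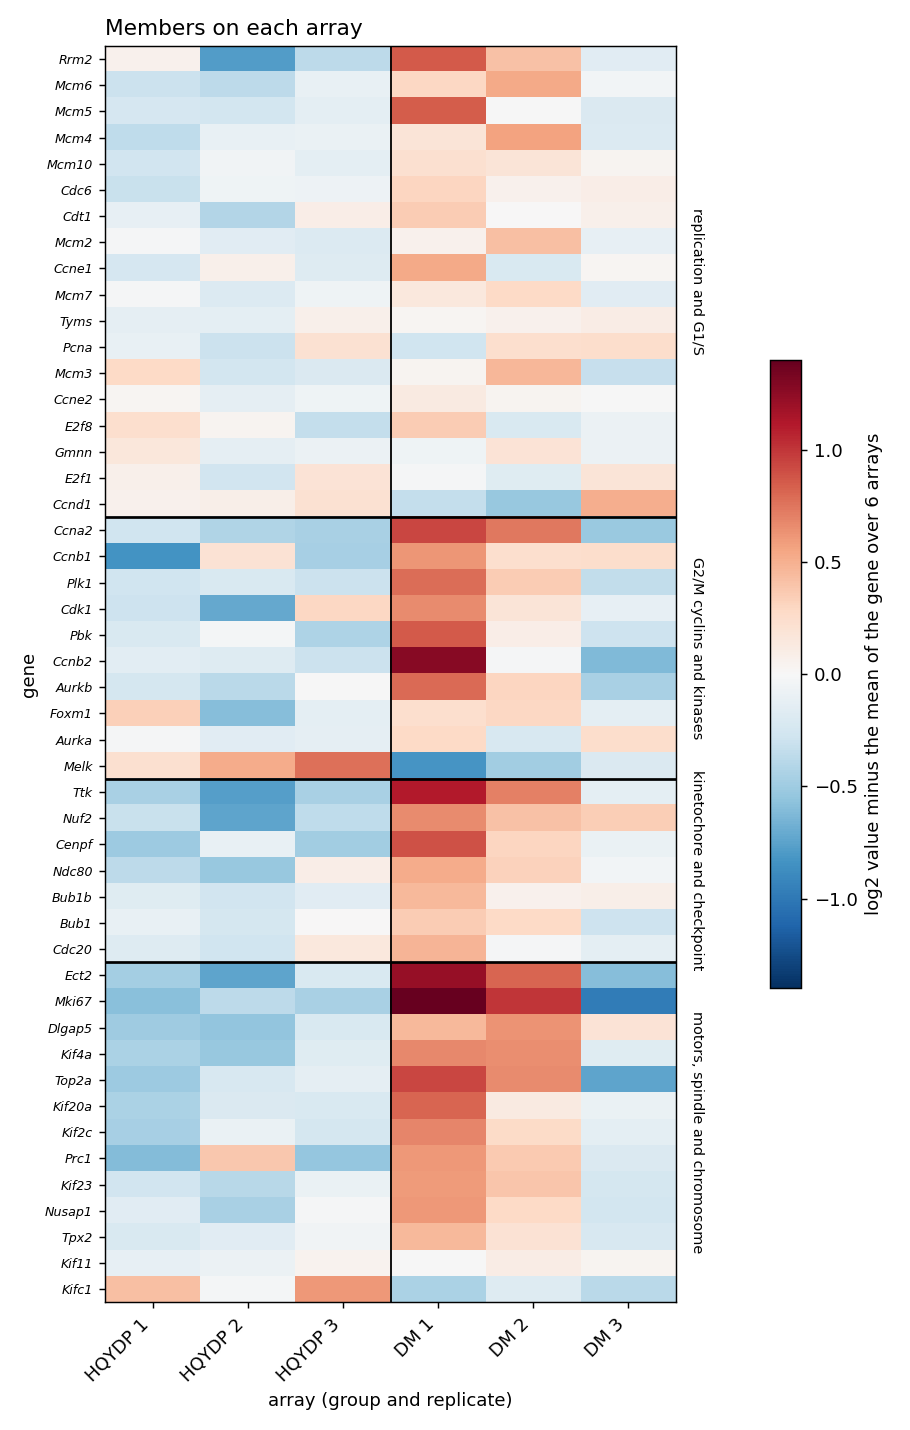
Log2 value of each of the 48 genes on each array, as the deviation from the gene's mean over 6 arrays, with the HQYDP arrays left of the DM arrays. Most genes are high on DM replicates 1 and 2 (median deviations 0.46 and 0.25), while DM replicate 3 (-0.14) lies with the HQYDP arrays (-0.22, -0.22 and -0.13).

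Of the 7 kinetochore and checkpoint genes, 3 fell at the study's thresholds, and all 7 differences were negative, at a median of -0.54. DM replicate 1 was the highest array for all 7. Ttk, the checkpoint kinase that starts the signal of untied kinetochores, had values of 3.47, 3.15 and 3.46 in HQYDP, against 5.03, 4.62 and 3.78 in DM. The groups did not overlap, and the DM arrays spread widely. The means were 3.36 ± 0.18 in HQYDP and 4.48 ± 0.64 in DM (SD, n = 3 each), a difference of -1.12 (SE 0.28), 2.17-fold lower in HQYDP, with an adjusted p of 0.340 in limma. The limma adjusted p for Ttk was 0.0174 without DM replicate 3 and 0.532 to 0.811 without any other single array, and the difference was -0.84 without DM replicate 1.

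Nuf2 had the smallest p of the 48 genes. Its values were 3.63, 3.20 and 3.59 in HQYDP, against 4.61, 4.35 and 4.29 in DM. Here DM replicate 3 stood with the other DM arrays, and a clear gap lay between the groups. The means were 3.48 ± 0.24 in HQYDP and 4.42 ± 0.16 in DM (SD, n = 3 each), a difference of -0.94 (SE 0.17) and 1.92-fold lower in HQYDP, with an adjusted p of 0.203 in limma. Ndc80, its partner in the same complex, had a difference of -0.54 (SE 0.21), 1.45-fold and so short of the fold threshold. Its HQYDP values of 4.04, 3.88 and 4.50 overlapped its DM values of 4.93, 4.73 and 4.37. Cenpf, a large kinetochore protein made in G2, had 4.32, 4.73 and 4.35 in HQYDP, against 5.72, 5.14 and 4.73 in DM. HQYDP replicate 2 and DM replicate 3 nearly met. The difference was -0.73 (SE 0.25), with a limma adjusted p of 0.495, and without DM replicate 1 it was -0.47 and no longer a fall at the study's thresholds.

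Bub1 and Bub1b, kinase and pseudokinase of the checkpoint, had differences of -0.23 (SE 0.20) and -0.39 (SE 0.16), of which Bub1b did not overlap between groups. Cdc20, the activator of the anaphase-promoting complex and the target that the checkpoint holds back, had the smallest difference of the group. It had 5.24, 5.15 and 5.57 in HQYDP, against 5.90, 5.41 and 5.28 in DM. The groups overlapped, and the difference of -0.21 (SE 0.20) was no larger than the spread between rats, with a limma adjusted p of 0.926.

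Among the 10 cyclins and kinases of G2 and mitosis, 2 fell, 1 rose and 7 did not pass, at a median of -0.43. That median was -0.17 without DM replicate 1 and -0.73 without DM replicate 3. DM replicate 1 was the highest array for 8 of the 10. Ccna2, cyclin A, which acts in S phase and G2, had 4.42, 4.28 and 4.24 in HQYDP, against 5.64, 5.44 and 4.18 in DM. DM replicates 1 and 2 stood over 1 log2 unit above every HQYDP array, and DM replicate 3 was the lowest array of all 6. The difference was -0.77 (SE 0.33), with a limma adjusted p of 0.642. It was -1.22 without DM replicate 3, with a limma adjusted p of 0.0177, and without any other single array it missed the study's thresholds at -0.49 to -0.82. In those other fits the limma adjusted p for Ccna2 was 0.838 to 0.981.

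Ccnb1, cyclin B1, which with Cdk1 drives entry into mitosis, had 3.63, 4.67 and 4.01 in HQYDP, against 5.09, 4.70 and 4.72 in DM. The groups did not overlap, though HQYDP replicate 2 came close to the lowest DM array. The difference was -0.73 (SE 0.25), with a limma adjusted p of 0.512, and it missed the thresholds without HQYDP replicate 1 (-0.49) or DM replicate 1 (-0.60). Cdk1 itself had 4.19, 3.77 and 4.78 in HQYDP, against 5.14, 4.67 and 4.37 in DM. HQYDP replicate 3 was above 2 of the 3 DM arrays, and the difference of -0.48 (SE 0.28) did not pass, with a limma adjusted p of 0.807. Ccnb2, cyclin B2, had a difference of -0.42 (SE 0.39), and its other row on the array one of -0.69. The first was 0.11 without DM replicate 1 and -0.84 without DM replicate 3. On both rows DM replicate 1 was highest and DM replicate 3 lowest.

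Melk went the other way from the cyclins and kinases around it. It had 5.80, 6.10 and 6.35 in HQYDP, against 4.75, 5.09 and 5.37 in DM. The groups did not overlap, and DM replicate 1, the highest array for most of the 48 genes, was its lowest. The means were 6.08 ± 0.28 in HQYDP and 5.07 ± 0.31 in DM (SD, n = 3 each), a difference of 1.01 (SE 0.21) and 2.02-fold higher in HQYDP, with an adjusted p of 0.240 in limma. The limma adjusted p was 0.0483 without DM replicate 3 and 0.457 to 0.578 without any other single array. The other kinases were lower in mean and did not pass. Plk1, which acts in mitotic entry and exit, had a difference of -0.52 (SE 0.25), Aurkb, the kinase of the chromosomal passenger complex, one of -0.42 (SE 0.28), and Aurka, the centrosome kinase, one of -0.20 (SE 0.18). Pbk, a mitotic kinase, had -0.44 (SE 0.27), and Foxm1, the transcription factor of G2/M genes, -0.26 (SE 0.24).

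**Figure D4:**
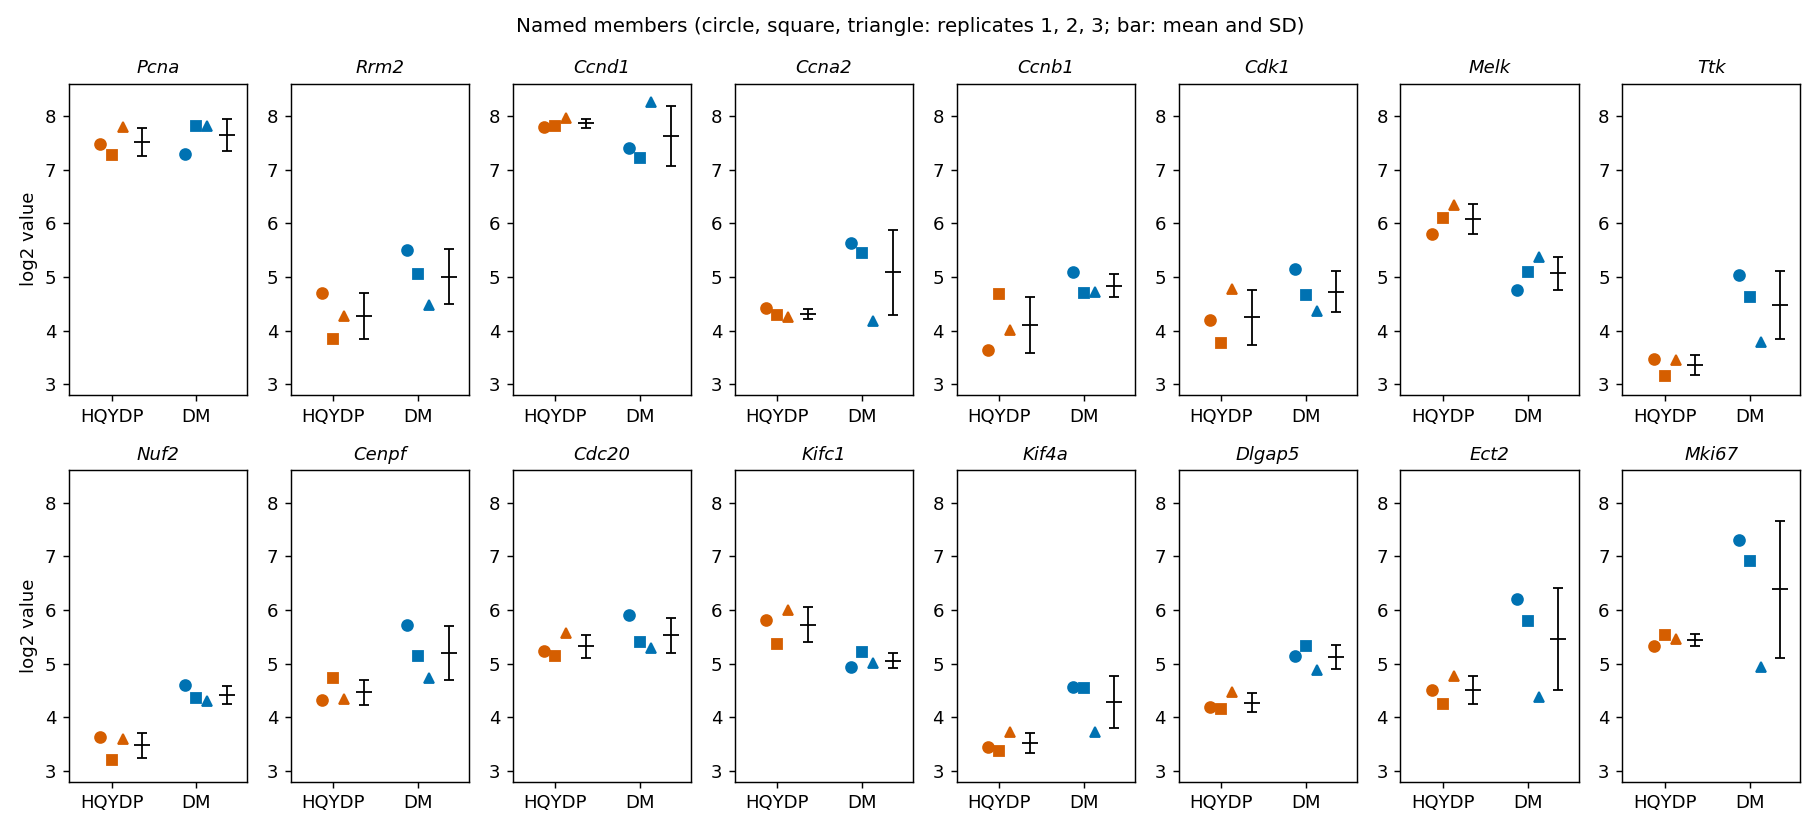
Log2 value on each array (circle, square and triangle for replicates 1, 2 and 3), with the group mean and SD (n = 3), for 16 of the 48 genes, HQYDP left of DM. Nuf2 and Dlgap5 keep a gap between groups, Mki67 and Ccna2 have 1 DM array at or below the HQYDP arrays, and Melk and Kifc1 are higher in HQYDP.

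Among the 13 motor, spindle and chromosome genes, 3 fell, 1 rose and 9 did not pass, at a median of -0.53. Dlgap5, which bundles microtubules near chromosomes, had 4.19, 4.15 and 4.48 in HQYDP, against 5.14, 5.32 and 4.88 in DM. The groups did not overlap, and the 3 DM arrays stood close together. The means were 4.27 ± 0.18 in HQYDP and 5.12 ± 0.22 in DM (SD, n = 3 each), a difference of -0.84 (SE 0.17) and 1.80-fold lower in HQYDP, with an adjusted p of 0.240 in limma. Kif4a had 3.45, 3.37 and 3.73 in HQYDP, against 4.57, 4.55 and 3.73 in DM. DM replicates 1 and 2 were far above every HQYDP array, while DM replicate 3 and HQYDP replicate 3 all but met. The difference was -0.77 (SE 0.24), with a limma adjusted p of 0.453. The limma adjusted p was 0.0382 without DM replicate 3 and 0.581 to 0.911 without any other single array, and the methods' t-test ended the call.

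Ect2, the exchange factor that turns on RhoA for the cleavage furrow, had the most negative difference of the group. It had 4.50, 4.24 and 4.77 in HQYDP, against 6.20, 5.80 and 4.38 in DM. DM replicate 3 fell among the HQYDP arrays. The difference was -0.96 (SE 0.39), with a limma adjusted p of 0.622. It was -1.49 without DM replicate 3, with a limma adjusted p of 0.0232, and missed the study's thresholds without HQYDP replicate 1 (-0.96), HQYDP replicate 2 (-0.83), DM replicate 1 (-0.59) or DM replicate 2 (-0.79). Without any other single array than DM replicate 3, the limma adjusted p for Ect2 was 0.763 to 0.990.

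Mki67, the chromosome surface protein whose antigen Ki-67 is the usual stain for cycling cells, had 5.32, 5.54 and 5.46 in HQYDP, against 7.31, 6.92 and 4.93 in DM. The 3 HQYDP arrays were alike, and the DM arrays held both the highest and the lowest values of the 6. The means were 5.44 ± 0.11 in HQYDP and 6.39 ± 1.27 in DM (SD, n = 3 each), and the difference of -0.95 (SE 0.50) did not pass, with an adjusted p of 0.763 in limma. It was -1.67 without DM replicate 3, with a limma adjusted p of 0.00656, and -0.49 without DM replicate 1. Without any other single array than DM replicate 3, the limma adjusted p for Mki67 was 0.880 to 0.999. Top2a, the topoisomerase that untangles sister chromatids, also had DM replicates 1 and 2 highest and DM replicate 3 lowest, with 4.58, 4.86 and 4.96 in HQYDP against 6.02, 5.74 and 4.35 in DM. Its difference of -0.57 (SE 0.37) did not pass, with a limma adjusted p of 0.849. It was -1.08 without DM replicate 3, with a limma adjusted p of 0.0409, -0.25 without DM replicate 1 and -0.38 without DM replicate 2. Like Mki67, Top2a did not pass limma's adjusted threshold without any other single array.

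The mitotic kinesins other than Kif4a and Kifc1 were lower in mean and did not pass. Kif20a, a kinesin of the central spindle, had -0.57 (SE 0.23) with no overlap, Kif2c, which takes microtubules apart at centromeres, -0.53 (SE 0.22), and Kif23, of the centralspindlin complex, -0.49 (SE 0.22). Kif11, the motor that pushes the spindle poles apart, had the smallest difference, -0.10 (SE 0.14). Prc1, which bundles the central spindle, had -0.52 (SE 0.29), Nusap1, a spindle protein, -0.42 (SE 0.23), and Tpx2, the activator of Aurka, -0.28 (SE 0.19).

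Kifc1, the minus-end motor that gathers spindle poles, rose where the plus-end motors did not. It had 5.80, 5.36 and 6.0 in HQYDP, against 4.94, 5.21 and 5.01 in DM. No HQYDP array was as low as any DM array. The means were 5.72 ± 0.33 in HQYDP and 5.06 ± 0.14 in DM (SD, n = 3 each), a difference of 0.67 (SE 0.19) and 1.59-fold higher in HQYDP, with an adjusted p of 0.421 in limma. Without HQYDP replicate 3 it was 0.53, under the fold threshold.

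Of the 18 replication and G1/S genes 1 was lower, with none higher at the study's thresholds and a median of -0.20, though 17 of the 18 differences were negative. Their median deviations on the DM arrays were 0.16, 0.12 and -0.03, where those of the G2/M genes were 0.72, 0.20 and -0.25. Rrm2, the small subunit of ribonucleotide reductase, which makes deoxynucleotides, had 4.69, 3.85 and 4.27 in HQYDP, against 5.49, 5.04 and 4.47 in DM. HQYDP replicate 1 was above DM replicate 3, so that the groups overlapped. The difference was -0.73 (SE 0.28), with a limma adjusted p of 0.582, and its other single-gene row gave -0.71. That other row had 3.86, 3.65 and 3.51 in HQYDP, against 4.38, 4.24 and 4.53 in DM. There the groups did not overlap, and DM replicate 3 was the highest array. The row used here missed the study's thresholds without HQYDP replicate 2 (-0.52), HQYDP replicate 3 (-0.73), DM replicate 1 (-0.49) or DM replicate 2 (-0.71).

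The 6 subunits of the MCM2-7 helicase were all lower in mean in HQYDP, and none passed. Mcm6 had the most negative difference, -0.51 (SE 0.18), with 4.65, 4.58 and 4.84 in HQYDP against 5.23, 5.47 and 4.90 in DM and no overlap. Mcm5 and Mcm4 had -0.42 (SE 0.25) and -0.37 (SE 0.20), Mcm2 -0.24 (SE 0.18), Mcm7 -0.18 (SE 0.16) and Mcm3 -0.12 (SE 0.23). Second rows of Mcm4 and Mcm3 gave -0.16 and -0.23, and Mcm3 was 0.08 without DM replicate 2. Mcm10, which activates the loaded helicase, had -0.30 (SE 0.15), and the loading factors Cdc6 and Cdt1 -0.30 (SE 0.16) and -0.29 (SE 0.18). Of these, Mcm10 and Cdc6 did not overlap between groups. Gmnn, the inhibitor of Cdt1, had -0.04 (SE 0.16).

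Pcna, the sliding clamp of the polymerases, had 7.48, 7.28 and 7.79 in HQYDP, against 7.29, 7.81 and 7.82 in DM. The groups overlapped, and the difference of -0.13 (SE 0.20) was within the spread between rats, with a limma adjusted p of 0.968. Tyms, thymidylate synthase, likewise had -0.13 (SE 0.14). Ccnd1, cyclin D1, which answers growth signals in G1, was the only gene beside Melk and Kifc1 with a positive difference. It had 7.80, 7.82 and 7.96 in HQYDP, against 7.41, 7.22 and 8.25 in DM. DM replicate 3, low for most of the 48 genes, was here the highest array, and the difference of 0.23 (SE 0.25) did not pass, with a limma adjusted p of 0.938. It was 0.55 without DM replicate 3, with a limma adjusted p of 0.209, and 0.03 without DM replicate 2. Ccne1 and Ccne2, the E cyclins of S phase entry, had -0.23 (SE 0.21) and -0.10 (SE 0.14). E2f1, an activator of replication genes, had 4.45, 4.11 and 4.57 in HQYDP against 4.36, 4.21 and 4.55 in DM, with means that all but met, and E2f8, a repressor of the same family, had -0.04 (SE 0.21).

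Around the 48 genes, 10 lists of related genes (197 listed, 169 with a row) had 6 lower (3.55%) and 1 higher at the study's thresholds, with a median of -0.10. Over all genes tested, 1.82% were lower and 1.46% higher. None of 16 genes of origin licensing passed (Gins1 -0.34 to Gins2 0.14), none of 22 of polymerases and the fork (Pold1 -0.34 to Rpa3 0.29), none of 15 of condensin and cohesin (Pttg1 -0.54 to Stag2 0.13) and none of 15 of the S phase checkpoint and repair (Chek1 -0.46 to Msh6 0.16). Further mitotic kinases and spindle genes ran lower without passing, with 26 of 31 negative, a median of -0.23 and a range of -0.54 for Depdc1 to 0.23 for Cdc25a. Of 21 other kinetochore and checkpoint genes 17 had a negative difference, at a median of -0.17, and 1 fell at the study's thresholds. This was Hjurp, the chaperone that places the centromeric histone, with 4.21, 3.96 and 4.14 in HQYDP against 4.77, 4.84 and 4.82 in DM. The groups did not overlap, and the difference was -0.71 (SE 0.15), with a limma adjusted p of 0.241. Dck, deoxycytidine kinase, fell among 8 genes of nucleotide supply (-0.66, SE 0.18), and Cks2, a small partner of cyclin-dependent kinases, among 10 of the G1 cyclins and kinases (-0.61, SE 0.22).

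Among 14 inhibitors of the cycle 2 fell. Cdkn1a, the p21 inhibitor of cyclin-dependent kinases and a p53 target, had 5.73, 5.75 and 5.97 in HQYDP, against 7.19, 7.07 and 6.92 in DM. The groups lay far apart and DM replicate 3 stood with its group. The difference was -1.24 (SE 0.16), with a limma adjusted p of 0.0561. Tp53inp1, another p53 target, had -0.68 (SE 0.20). Among 17 regulators of the RB, E2F and MYB kind, Myc, a growth-promoting transcription factor, fell with 6.16, 6.29 and 6.30 in HQYDP against 7.69, 7.73 and 6.75 in DM. No arrays overlapped, and the difference was -1.14 (SE 0.25), with a limma adjusted p of 0.258. Mybl1, a MYB family transcription factor, rose with 8.15, 7.78 and 7.90 in HQYDP against 6.92, 7.19 and 7.43 in DM, a difference of 0.76 (SE 0.18) and a limma adjusted p of 0.297. The study lists these 4 genes among those it chose on the same arrays, so their direction is not independent evidence.

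Some markers of other cells and of injury also passed the study's thresholds. After adjustment in limma 0 of these markers passed, where 0.0165% of all genes did. Their lowest limma adjusted p was 0.241, among the tubular injury markers. Over all genes tested, 1.82% fell and 1.46% rose at the study's thresholds, and 20.7% were highest on DM replicate 2. Of 13 macrophage markers 10 fell, and their mean log2 level was 5.92, 5.60 and 5.67 in HQYDP, against 6.51, 6.96 and 5.82 in DM. DM replicate 2 was highest for 11 of these 13, where DM replicate 1 was highest for 33 of the 48 cell cycle genes. Of 14 markers of tubular injury 6 fell, with mean levels of 7.39, 7.12 and 7.36 in HQYDP and 8.35, 8.49 and 7.50 in DM, where DM replicate 3 was again the low one. Of 9 fibroblast and smooth muscle markers 2 fell, with mean levels of 6.26, 5.95 and 6.24 in HQYDP and 6.33, 7.34 and 6.33 in DM, and DM replicate 2 was highest for all 9. Of 12 T, B and NK cell markers 1 fell (Cd4), with mean levels of 4.97, 4.54 and 4.61 in HQYDP and 5.14, 5.42 and 4.66 in DM. The tissue's own markers, 10 of the tubular epithelium, had mean levels of 10.46, 10.63 and 10.38 in HQYDP and 10.32, 10.15 and 10.26 in DM, with 2 higher (Umod and Atp6v1b1), and none of 6 podocyte and endothelial or 6 red cell precursor markers passed. The part of these cells in the cell cycle result was not tested.

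**Figure D5:**
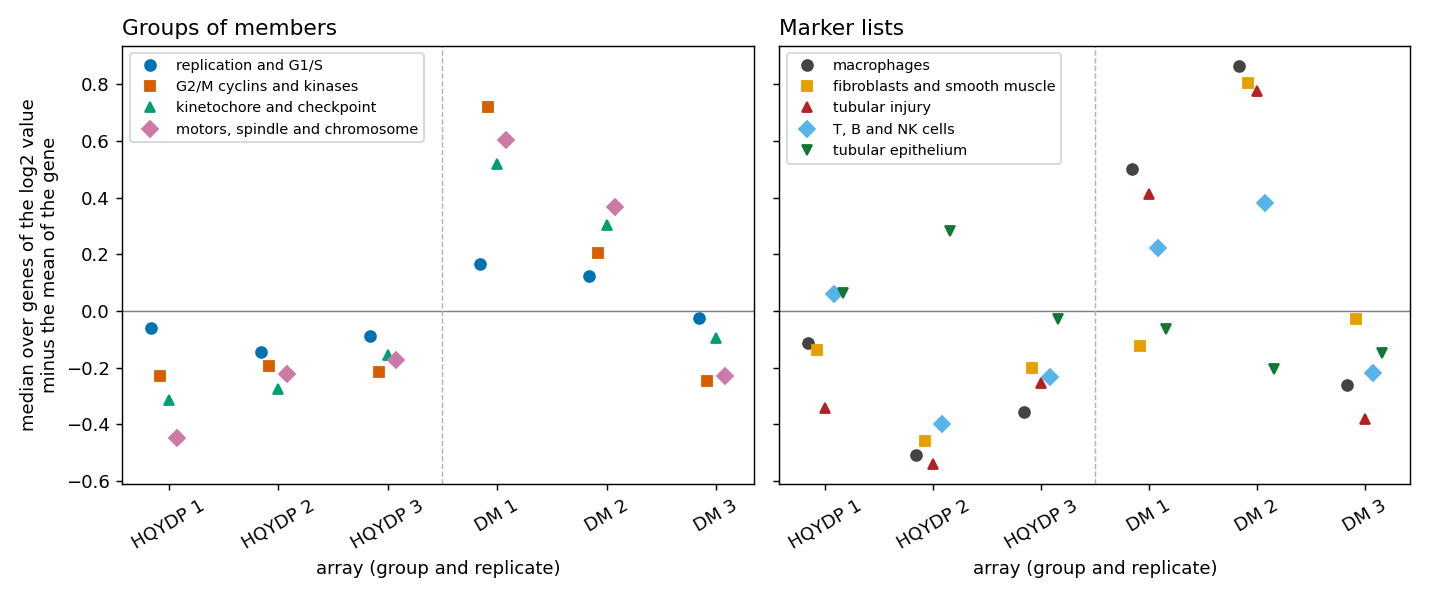
Median over genes of the log2 value minus the gene's mean over 6 arrays, for the 4 groups of cell cycle genes (left) and 5 marker lists (right), on each array, HQYDP arrays left of DM arrays. The cell cycle groups peak on DM replicate 1 (0.16 to 0.72) and macrophage, fibroblast, injury and lymphocyte markers on DM replicate 2 (0.38 to 0.86).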

How the data were processed

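The authors deposited log2 values per transcript, 1 column per array. For the software and normalization behind them, the sources used here give nothing. Base 2 was taken from the span of the values (0.35 to 13.59), and array medians differed by at most 0.15. Of 36685 rows, 18511 paired with 1 gene symbol of the platform annotation, 575 with several and 17599 with none. Rows with 1 symbol were used, and for 291 genes with more than 1 row the row of highest mean was kept, which left 18166 genes.

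All 6 arrays entered a single limma fit (version 3.58.1, under R 4.3.3) of HQYDP against DM without covariates, with Benjamini-Hochberg adjustment over all genes and no filter on dim genes. Counts used the study's thresholds, a fold over 1.5 with an unadjusted p under 0.05. The fit was tested on simulated data. The study's methods name Student's t-test in general, here called the methods' t-test, which was one alternative. Others were a block for the replicate number, an intensity trend, weights per array, each array left out, a filter on dim genes, quantile normalization or median centring of the arrays, other rules for rows and no fold limit. Values per array were given for genes past the thresholds, for the highest and lowest difference of each group, and for Mki67, Pcna, Cdk1, Ccnb1 and Ccnd1; Ndc80, Top2a, Mcm6 and E2f1 were added after their values were seen. The genes, the lists and these rules were chosen with earlier results of these data known. Promoters came from RefSeq (GRCr8). The number of arrays limits the precision. Exact permutation of 3 against 3 arrays cannot go below a two-sided p of 0.1 and was not used.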

Additional observations from a re-analysis of the deposited data

How the results depend on the processing

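At the study's thresholds, 9 of the 48 genes were lower and 2 higher in HQYDP, and these counts held under an intensity trend, quantile normalization, median centring, the mean of a gene's rows and rows with several symbols. The lower count was 3 under the methods' t-test (0.655% of all genes), 16 with array weights (1.97%) and 14 with no fold limit (3.75%), beside 1.82% in the fit reported. With an array left out it ran from 4 (without DM replicate 1) to 23 (without DM replicate 3), the higher count from 1 to 2, and the adjusted count from 0 to 7. In the same fits the median of the 48 genes ran from -0.60 to -0.23, of the replication and G1/S genes from -0.30 to -0.14, of the G2/M genes from -0.73 to -0.17, of the kinetochore genes from -0.69 to -0.40 and of the motor group from -0.74 to -0.32. A filter on dim genes kept 40 of the 48 genes, with 6 lower (2.25% of all genes kept) and 2 higher (1.52%). It left out Ttk, Nuf2 and Kif4a, whose mean values lay under the filter's limit of 4.17. With the replicate block the counts were 10 lower (2.06% of all genes) and 2 higher (1.58%), Mki67 being the gene added. Whether the replicate numbers pair the rats is not known. Correlations of deviations between same-numbered arrays were 0.14, -0.08 and 0.21, and with so few arrays per group these cannot decide it. With all 6 arrays no alternative gave a gene of the 48 past the adjusted threshold, and none of the 16 genes given array by array under the rule changed sign under any alternative. Of the other 32, 5 changed sign with an array left out, none of them past the thresholds with all arrays: Ccnb2 (-0.84 to 0.11), Mcm3 (-0.31 to 0.08), Gmnn (-0.12 to 0.05), E2f1 (-0.10 to 0.13) and E2f8 (-0.17 to 0.13). The cause of these changes was not tested. The arrays give no detection call, so which dim genes stood above background is unknown.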
